A study of Mus musculus with 8 samples.

Results

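The liver strain difference was read from 4 of the 8 arrays of the study: the liver arrays of B6.CAST-17 congenic mice and of C57BL/6J mice, called B6 here, each on chow and on a 2-choice diet. All 4 were taken by tissue, strain and diet as the sample titles give them, and each congenic array was paired with the B6 array of the same diet. The other 4 arrays, from hypothalamus, served only as a check of tissue identity and for 2 alternative settings.

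A congenic strain carries a stretch of donor chromosome, here from CAST mice on chromosome 17, on the genome of a recipient strain. Genes inside the stretch carry donor alleles, while genes elsewhere carry the alleles of the recipient. Mouse chromosome 17 holds the major histocompatibility complex and several genes of lipid and sulphur amino acid metabolism that are strongly expressed in hepatocytes, the main cells of liver.

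Each array held 1 pool of RNA from 6 male mice, so the comparison had 2 congenic pools and 2 B6 pools and no repeated pool. The congenic mice were homozygous for the donor segment, whose bounds, like the ages of the mice, were not given in the sources used here. Chow pools came from mice fed chow, and 2-choice pools from mice offered for 24 h a carbohydrate diet and a fat diet side by side, each with 22% protein and 78% of the other macronutrient. Per the design text, 20 to 25 mice of each strain had first chosen between diets for 10 days, those with the most divergent intake were kept and put back on chow for 6 weeks, and tissue was taken 4 h before lights out. The pools therefore held selected mice with earlier exposure to the diets, and the strains may differ in the mice selected as well as in genotype.

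The labels of these arrays were not uniform. Titles and characteristics gave liver, strain and diet alike, but the free-text descriptions of all 4 named hypothalamus, those of the chow arrays named the 2-choice diet, and that of the B6 2-choice array named the congenic strain. Alb, the albumin gene of hepatocytes, stood between 20.14 and 21.47 in the liver arrays and between 8.50 and 12.50 in the hypothalamus arrays (log2 intensity, all 8 arrays on 1 scale). Mbp, a myelin gene, stood between 8.04 and 10.10 in the liver arrays against 15.62 to 18.73. Of the neuronal genes checked, Syt1 stood at 11.81 to 12.58 in liver against 14.36 to 16.01. Snap25 did not separate the tissues, at 7.99 to 8.64 in liver against 7.35 to 9.68. For strain, H2-Ea was read first, because the H2 b haplotype of C57BL/6 mice carries a promoter deletion that silences it. Its log2 level was 8.52 in the B6 chow pool, 8.39 in the B6 2-choice pool, 12.62 in the congenic chow pool and 11.35 in the congenic 2-choice pool. Both arrays titled B6 were thus near the bottom of the scale, below the filter level of 9.04, and both titled congenic were above it.

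Values are log2 probe intensities from single-channel chemiluminescent arrays, and differences are congenic minus B6. In all, 19807 of 33012 probes had a mean level at or above the 40th percentile and were tested with limma, strain against B6 with diet as a block and the spread taken from liver alone. A probe or gene is called where its Benjamini-Hochberg adjusted p, over all 19807, was under 0.05. The fit had 1 residual degree of freedom, which is the strain by diet interaction. It drew most of its spread from the other probes (15 prior degrees of freedom). A p-value therefore sets a probe's difference mainly against the pair disagreement usual among probes of similar level, less against its own. Since no pool was repeated, it does not measure variation between pools of 1 strain and diet. limma called 252 probes (1.27%), of which 47 (0.237%) were higher and 205 (1.03%) lower in the congenic pools. All 252 had the same sign in both diet pairs, and in 227 the 2 congenic pools did not overlap the 2 B6 pools, as held for 34.6% of all probes tested.

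These counts depend on how the spread is estimated. No probe was called without the trend of variance on level (lowest limma adjusted p = 0.589, 1679 probes at an unadjusted p under 0.05). None was called with strain alone as the term (0.0752, 1171 probes) or with the spread from all 8 arrays (0.217, 1318 probes). With strain alone on 3 arrays, 8 probes were called without the B6 chow pool, 15 without the B6 2-choice pool, 8 without the congenic chow pool and 12 without the congenic 2-choice pool. Every call named in the text is one of the fit of the 4 liver arrays and was lost in the first 3 of these settings.

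Between the 2 B6 pools, which differ in diet, 32.7% of the 19807 probes tested lay at least 1.5-fold apart, and between the 2 congenic pools 41%. The strains lay 1.5-fold apart at 35.8% of probes on chow and 35.5% on 2-choice, which lies between the distances of the diets within B6 and within the congenic strain. By gene, where the brightest probe with a single symbol stood for the gene, 88 of 9748 genes were called (0.903%), 18 higher and 70 lower. This share is the background for the count of calls in every gene list below. At 0.903%, lists of these sizes would hold few calls, so few or no calls in a list is not read as a result about that list. Without a test, 344 genes (3.53%) were at least 1.5-fold higher in the congenic pool of both pairs and 577 (5.92%) at least 1.5-fold lower. The remaining calls came from 161 probes without a single gene symbol, which are not named here.

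The called genes were more frequent on chromosome 17 than on any other chromosome. Of its 500 genes tested 25 were called (5%), 7 higher and 18 lower, against 63 of 9242 genes elsewhere (0.682%), 11 higher and 52 lower. The next share was 1.22% on chromosome 4, with 7 of 573. At least 1.5-fold apart in both pairs were 94 of the 500 (18.8%), 42 higher and 52 lower, against 8.95% elsewhere and at most 11.6% on another chromosome (chromosome 7). The median size of the log2 difference, without sign, was 0.35 on chromosome 17 and 0.26 elsewhere, and the signed medians were -0.01 and 0.03. Higher genes made up 28% of the calls on chromosome 17 and 17.5% elsewhere. How the probes match donor alleles was not analysed here, so for genes inside the donor segment RNA level and probe binding cannot be told apart.

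**Figure D1:**
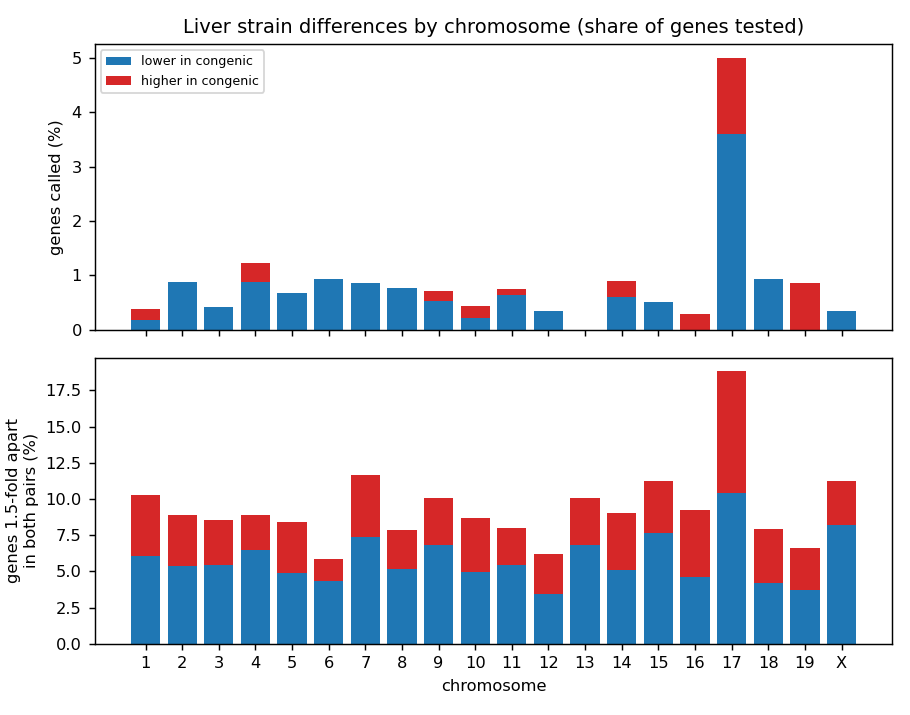
Share of the genes tested on each chromosome that limma called (upper panel) or that were at least 1.5-fold apart in both diet pairs (lower panel), in percent, split into genes lower (blue) and higher (red) in the congenic pools. Chromosome 17 reached 5% and 18.8%, while no other chromosome passed 1.22% and 11.6%; chromosome Y, with 4 genes tested, is left out.

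The calls were spread over most of the length of chromosome 17. In stretches of 50 neighbouring tested genes, by the order in the mouse gene table, the first 9 stretches each held between 1 and 5 called genes. That is 2% to 10% of their genes, against 0.903% of all genes tested. The stretches from Zfp947 to Rpl3l, from Zfp472 to Nelfe and from Kdm4b to Spast held 1 call each, too few to set apart from that share. The stretch from Rpl7l1 to Uhrf1 held 5, and the stretches from Scaf8 to Zfp760 and from Rps10 to Cyp4f13 held 4 each. The last stretch, 49 genes from Slc30a6 to Mettl4, held 0 called genes by limma. It had 8 at an unadjusted limma p under 0.05, against 10 to 20 in each other stretch and 1142 of all 9748 genes. In both pairs 10.2% of its genes were 1.5-fold apart, against 12% to 24% in the other stretches and 8.95% on other chromosomes. H2-Q8 was left out of this order, because the table places it far from H2-Q7 and H2-Q10.

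**Figure D2:**
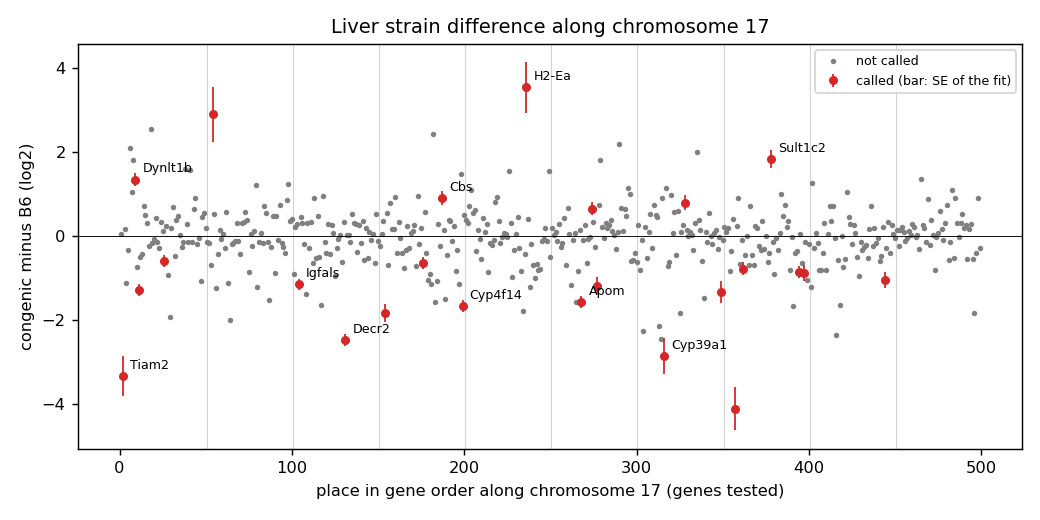
Congenic minus B6 difference (log2) of 499 genes tested on chromosome 17 against their place in gene order, with grey lines every 50 genes; red points with SE bars are called, grey points are not. Called genes run from Tiam2 near the start to Alk, and the last 49 genes hold none.

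Enzymes of lipid metabolism were among the called chromosome 17 genes that fell. Decr2, the peroxisomal 2,4-dienoyl-CoA reductase that removes double bonds during oxidation of polyunsaturated fatty acids, stood at 16.55 in B6 chow, 16.77 in B6 2-choice, 13.92 in congenic chow and 14.45 in congenic 2-choice. Both congenic pools were over 2 log2 units below both B6 pools, with no overlap. The fitted difference was -2.48 ± 0.14 (SE, 2 pools against 2), a 5.57-fold fall and the lowest adjusted p of the comparison (limma adjusted p = 1.52e-07). It was called in 3 of the 4 fits that left out 1 pool. Among the 23 tested members of the list of peroxisomal and unsaturated fatty acid oxidation (25 in the list), Decr2 was the only one called, and the list's median was -0.15 against 0.03 over all genes. Its mitochondrial counterpart Decr1, on chromosome 4, was at 0.19 on chow and -0.20 on 2-choice.

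Cyp4f14, a cytochrome P450 that hydroxylates leukotrienes and fatty acids at their omega end, stood at 18.79 in B6 chow, 18.24 in B6 2-choice, 17.00 in congenic chow and 16.71 in congenic 2-choice. The B6 pools were both higher, with a gap of over 1 log2 unit between the groups. The fitted difference was -1.66 ± 0.15 (limma adjusted p = 2.07e-05). Its chromosome 17 relatives moved less: Cyp4f15 differed by -0.23 on chow and -0.44 on 2-choice, and Cyp4f13 by 0.33 and 0.68, and neither was called. P450 genes of this family are alike in sequence, so their probes may share signal.

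Of the 12 genes in the omega and lipid hydroxylation list, 6 were tested and 3 were called, all lower, with a median of -0.77 against 0.03 over all genes tested (0.903% called). Besides Cyp4f14 these were Cyp4f18 of chromosome 8 and Cyp4a14 of chromosome 4, a fatty acid omega-hydroxylase and target of the nuclear receptor PPAR alpha. Cyp4f18 differed by -1.28 on chow and -1.30 on 2-choice (-1.29 ± 0.28, limma adjusted p = 0.0336). Cyp4a14 stood at 16.71 and 17.48 in B6 chow and 2-choice against 16.22 and 15.55 in the congenic pools. Its groups did not overlap, but the pair difference was -0.48 on chow and -1.94 on 2-choice (-1.21 ± 0.23, limma adjusted p = 0.011). Of the other 13 tested PPAR alpha targets none was called, but at 0.903% a list this small would hold few calls. Of all 14 tested, 6 were at an unadjusted limma p under 0.05, against 1142 of all 9748 genes. In both pairs 3 were higher and 5 lower, and the list's median was -0.12. The most abundant, the fatty acid binding protein gene Fabp1, was at -0.26 and 0.00.

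Cyp39a1, the 24-hydroxycholesterol 7 alpha-hydroxylase of a side branch of bile acid synthesis, stood at 12.47 and 12.57 in the B6 pools and at 9.82 and 9.50 in the congenic pools, chow and 2-choice in that order. The congenic values were within 1 log2 unit of the filter level. The fitted difference was -2.86 ± 0.43 (limma adjusted p = 0.00193). It was the only one called of 18 tested bile acid genes (list median 0.02). The main-pathway hydroxylases Cyp7a1 and Cyp8b1 were lower in both pairs without passing, at -0.47 ± 0.16 (adjusted p = 0.213) and -0.53 ± 0.16 (adjusted p = 0.149). The chromosome 17 sterol transporter genes Abcg5 and Abcg8 were at 0.59 and 0.16, also without passing.

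Apom, the apolipoprotein that carries sphingosine 1-phosphate on HDL, stood at 16.62 in B6 chow, 16.02 in B6 2-choice, 15.02 in congenic chow and 14.48 in congenic 2-choice. The groups did not overlap, and the pair differences were nearly equal, at -1.60 and -1.54. The fall was 2.97-fold (-1.57 ± 0.14, limma adjusted p = 2.07e-05). No other of the 15 tested apolipoprotein and lipoprotein genes was called (list median 0.09). The abundant Apoa1, Apoa2 and Apoc3 differed by 0.14, -0.07 and 0.23.

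Among secreted and redox genes of chromosome 17, Igfals fell 2.22-fold. It encodes the acid-labile subunit that holds IGF1 in its circulating complex and is a target of growth hormone. It stood at 16.81 and 16.63 in the B6 pools and 15.67 and 15.45 in the congenic pools, with pair differences of -1.13 and -1.17 (limma adjusted p = 2.34e-04). The other 17 tested growth hormone targets and sex-biased genes were not called, and the list's median was -0.17. Sod2, the mitochondrial superoxide dismutase, was at 17.21 and 17.34 against 16.56 and 16.80, a small fall (-0.59 ± 0.14, limma adjusted p = 0.0444) near the threshold. Rnaset2b, a lysosomal ribonuclease with a near-identical paralog, fell by 1.28 on the log2 scale, with both congenic pools at 16.22.

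Cbs, the first enzyme of transsulfuration, which joins homocysteine and serine, rose. It stood at 18.35 in B6 chow, 17.95 in B6 2-choice, 19.33 in congenic chow and 18.78 in congenic 2-choice. The lower congenic pool was above the higher B6 pool, and the fitted rise was 0.90 ± 0.16 (1.87-fold, limma adjusted p = 0.00755). Cth, the next enzyme of the pathway and on chromosome 3, was higher in both pairs, at 0.43 and 0.56, without passing (adjusted p = 0.11). No other of the 17 tested genes of the methionine and transsulfuration list was called, and the list's median was -0.02. Gnmt, a methyl sink enzyme also on chromosome 17, was at -0.26 on chow and 0.22 on 2-choice.

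Sult1c2, a cytosolic sulfotransferase, stood at 12.47 and 12.49 in the B6 pools, 14.68 in congenic chow and 13.93 in congenic 2-choice. It was 3.56-fold higher in the congenic pools (1.83 ± 0.21, limma adjusted p = 2.24e-04), the largest rise among called chromosome 17 genes with both strain means above the filter level. Dynlt1b, a dynein light chain gene with near-identical copies on the chromosome, stood at 13.62 and 13.29 against 14.95 and 14.63. Its pair differences were 1.34 on chow and 1.34 on 2-choice (limma adjusted p = 2.68e-04). Vegfa, the endothelial growth factor, was 0.79 ± 0.18 higher by its brighter probe (adjusted p = 0.043), while its dimmer probe differed by 0.44 (adjusted p = 0.576). Ddx39b, an RNA helicase of the class III region, was 0.65 ± 0.15 higher (adjusted p = 0.0376).

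The bases before the start site are shown for 3 of these genes, Decr2 as the call of lowest p, Cyp4f14 as the brightest called enzyme gene of the chromosome that fell and Sult1c2 as a gene that rose. They are from RefSeq (GRCm38.p6), a reference based on C57BL/6J; the CAST alleles were not analysed here. Each is the 250 bases before the listed start on the minus strand, 5′ to 3′ in the sense of the gene. Decr2 lies at chr17:26090165-26090414, Cyp4f14 at chr17:32917357-32917606 (the first of 4 listed starts) and Sult1c2 at chr17:53845959-53846208. Capitals mark the letters of a CCAAT box on the opposite strand.

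Decr2: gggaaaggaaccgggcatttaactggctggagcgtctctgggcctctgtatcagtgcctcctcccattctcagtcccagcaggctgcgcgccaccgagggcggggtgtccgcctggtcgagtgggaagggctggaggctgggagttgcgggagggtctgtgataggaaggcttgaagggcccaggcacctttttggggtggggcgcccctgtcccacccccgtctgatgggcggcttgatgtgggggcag
Cyp4f14: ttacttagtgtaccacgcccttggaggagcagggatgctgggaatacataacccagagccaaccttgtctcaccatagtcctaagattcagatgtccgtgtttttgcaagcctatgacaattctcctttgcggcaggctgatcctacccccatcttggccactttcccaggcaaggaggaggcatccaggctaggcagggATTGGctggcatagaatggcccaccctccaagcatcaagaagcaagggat
Sult1c2: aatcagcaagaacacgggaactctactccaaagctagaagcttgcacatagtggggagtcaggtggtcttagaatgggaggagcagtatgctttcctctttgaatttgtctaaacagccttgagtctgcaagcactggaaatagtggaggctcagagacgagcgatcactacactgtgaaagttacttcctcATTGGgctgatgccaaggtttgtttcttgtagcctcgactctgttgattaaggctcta

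Both strands were searched for 3 short motifs. TATAAA, the core of a basal promoter box, is held by 12.4% of 32851 such windows, the letters CCAAT by 33.8%, and AGGTCA, a nuclear receptor half-site, by 14%. Cyp4f14 and Sult1c2 each had 1 match to CCAAT on the opposite strand, its first letter in the line at position -50 and -58 from the start, with no overlap between matches. Decr2 had no match to these letters in this window. In composition the windows differed, with 66% G or C and 12 CG steps before Decr2, 52.8% and 3 before Cyp4f14, and 46.4% and 4 before Sult1c2.

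**Figure D3:**
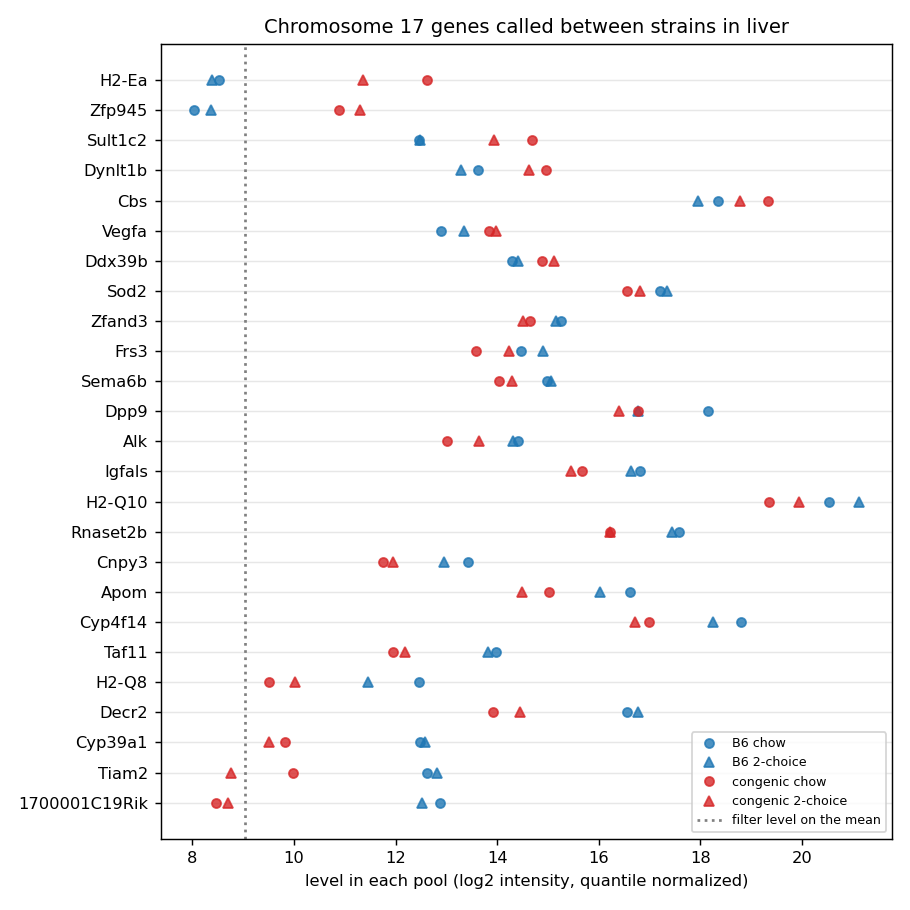
Log2 level in each of the 4 liver pools for the 25 called chromosome 17 genes, ordered from the largest fall (bottom) to the largest rise (top); blue is B6, red congenic, circles chow, triangles 2-choice, and the dotted line is the filter level of 9.04. The congenic and B6 pools do not overlap for any of the 25, which were picked by the strain fit, as holds for 34.6% of all probes tested. For Dpp9 the groups nearly meet, at 16.7673 in B6 2-choice and 16.7659 in congenic chow. H2-Ea, Zfp945 and 1700001C19Rik have both pools of 1 strain below the line.

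Class II genes, most of them on chromosome 17, encode the chains that present peptides on antigen-presenting cells. H2-Ea, shown above to be near the bottom of the scale in B6, was the only one called of 8 tested (3.53 ± 0.60, limma adjusted p = 0.00536), and the size of that difference rests on B6 values below the filter level. Of the others, 6 were lower in both pairs and H2-Oa was higher in both (1.24 and 1.86, adjusted p = 0.381), and the list's median was -0.48. H2-Aa stood at 12.58 and 10.97 in the B6 pools and 10.79 and 9.20 in the congenic pools, a pair difference of -1.79 and -1.77 that did not pass (-1.78 ± 0.46, adjusted p = 0.077). Cd74, the invariant chain on chromosome 18, was at -0.46 and -0.61 (adjusted p = 0.136), and H2-Eb1 at -0.32 and -0.53 (adjusted p = 0.274).

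The summed level of 12 macrophage markers, 11 of them above the filter level in all pools, was 1.06 times that of B6 on chow and 0.795 times on 2-choice. Its part in the class II values was not tested. In tissue pools such as these, fewer cells of a type and less RNA per cell cannot be told apart.

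Class I genes present peptides on nearly all cells, and 17 of 28 listed members were tested. H2-Q10, a class I gene that hepatocytes secrete, stood at 20.52 in B6 chow, 21.12 in B6 2-choice, 19.34 in congenic chow and 19.95 in congenic 2-choice. The groups did not overlap and the pair differences were -1.18 and -1.18 (limma adjusted p = 0.00726). H2-Q8 fell too, at 12.46 and 11.45 against 9.51 and 10.01 (-2.19 ± 0.50, adjusted p = 0.043). The classical gene H2-K1 (-0.16), H2-Q7 (-0.26) and the light chain B2m of chromosome 2 (-0.18) were not called, and the list's median was -0.16. H2-Bl was higher in both pairs (2.01 and 2.36) without passing (adjusted p = 0.0573). Class I genes are near-identical copies that differ by haplotype, so which copy each probe reports in the congenic pools is uncertain.

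The remaining called genes of chromosome 17 covered varied roles. 1700001C19Rik, an uncharacterised gene, had the largest fall, from 12.86 and 12.52 to 8.46 and 8.69, with both congenic values below the filter level. Tiam2, an exchange factor for the GTPase Rac, stood at 12.61 and 12.81 in the B6 pools and 9.99 and 8.76 in the congenic pools (-3.34 ± 0.47, limma adjusted p = 0.00123). Taf11, a subunit of the general transcription factor TFIID, stood at 13.98 and 13.81 against 11.94 and 12.18 (-1.84 ± 0.21, limma adjusted p = 2.34e-04). In each of these the strains were clearly apart in both diets.

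Lower too were Cnpy3 (-1.34), a chaperone of Toll-like receptors, the receptor kinase gene Alk (-1.04), Dpp9 (-0.88), a dipeptidyl peptidase, Sema6b (-0.85), Frs3 (-0.78), an adaptor of FGF receptors, and Zfand3 (-0.63). Dpp9 was uneven between pairs, at -1.39 on chow and -0.37 on 2-choice. Zfp945, a zinc finger gene, was at 8.03 and 8.37 in the B6 pools, below the filter level, and at 10.89 and 11.30 in the congenic pools. Rab11b, a recycling endosome GTPase, had 1 of 2 probes called: the dimmer at -0.73 (adjusted p = 0.0289) and the brighter at -0.54 (adjusted p = 0.0606). Glo1, the glyoxalase that removes methylglyoxal, was higher in both pairs (0.38 and 0.77) without passing (adjusted p = 0.0615).

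**Figure D4:**
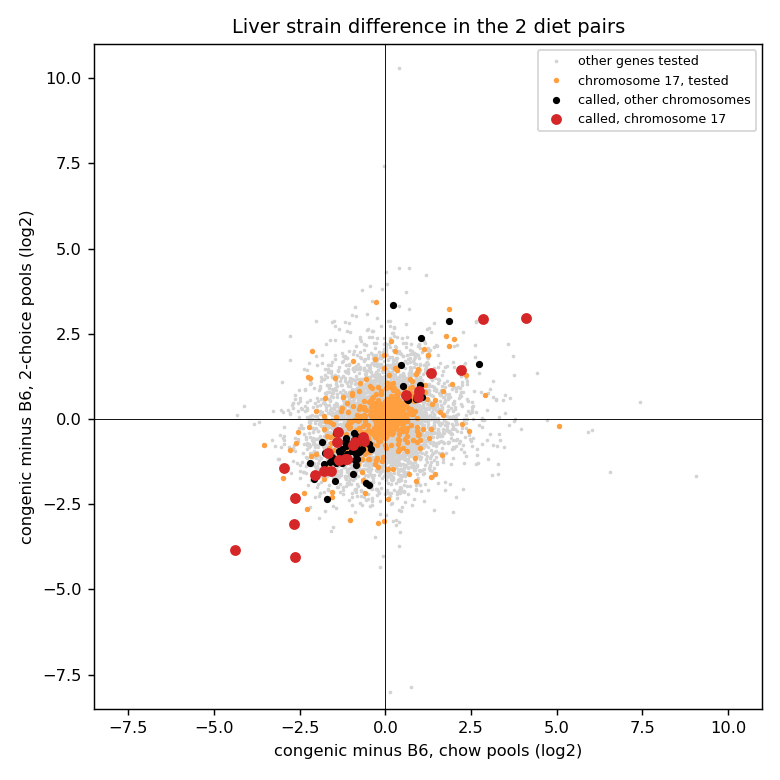
Congenic minus B6 difference (log2) in the 2-choice pair against that in the chow pair for the 9748 genes tested; orange marks chromosome 17, red its called genes and black the called genes of other chromosomes. Called genes lie in the lower left and upper right corners of the plot about 0, since each had the same sign in both pairs, and points far out along 1 axis differed in 1 pair only.

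Outside chromosome 17, the higher called genes included several metabolic enzymes. Acly, the citrate lyase that supplies acetyl-CoA for lipogenesis, stood at 13.19 in B6 chow, 13.73 in B6 2-choice, 13.66 in congenic chow and 15.32 in congenic 2-choice. The congenic chow pool lay between the B6 pools, so the rise (1.03 ± 0.22, limma adjusted p = 0.0252) rested mainly on the 2-choice pair (1.59 against 0.46). No other of the 17 tested lipogenesis genes was called, and the list's median was 0.07 on chow and 0.35 on 2-choice. Fasn, Scd1 and Pklr had the same unevenness in their values, at 0.14 and 0.85, 0.07 and 1.75, and -0.13 and 1.14, chow and 2-choice in that order, without passing. The regulator Srebf1 was at -0.30 and -0.24. Whether the strain difference depends on diet has no error term in this design and was not tested.

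Aldh1b1, a mitochondrial aldehyde dehydrogenase, was 1.99-fold higher with nearly equal pair differences of 1.00 and 0.98 (limma adjusted p = 0.0016). Got1, the cytosolic aspartate aminotransferase, stood at 17.09 and 16.56 in the B6 pools and 17.76 and 17.11 in the congenic pools, so it was higher in each diet by about as much as diet moved it within a strain (0.61 ± 0.14, limma adjusted p = 0.042). Of 18 tested genes of amino acid breakdown and the urea cycle, 12 were higher in both pairs and 2 lower (66.7% and 11.1%, against 30.9% and 27.2% of all genes). Got1 alone was called, and the list's median was 0.17. Otc, the ornithine transcarbamylase, was at 0.53 ± 0.14 (adjusted p = 0.0933), Asl at 0.40 and Ass1 at 0.21. Nmrk1, a nicotinamide riboside kinase (0.60), and Gstp3, a glutathione S-transferase (0.73), were also called higher.

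Cd200r3, a receptor of basophils and mast cells, stood at 11.03 and 10.62 in the B6 pools and 12.89 and 13.51 in the congenic pools (2.37 ± 0.32, limma adjusted p = 7.47e-04). Col5a2, a fibrillar collagen, was 2.17 ± 0.32 higher, and Il17rd, a modulator of FGF and IL-17 signalling, 1.71 ± 0.25, with pair differences of 1.03 and 2.38. Nrg4, an ErbB4 ligand, was 0.85 ± 0.18 higher. The splicing-related Rsrp1 was 0.74 ± 0.15 higher, but its groups overlapped, at 15.16 in B6 2-choice and 15.07 in congenic chow. Of 9 measured stellate and fibroblast markers 4 were above the filter level in all pools, and their summed level was 0.986 and 0.961 times that of B6. Their part in the Col5a2 value was not tested.

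The call of Cct2, a chaperonin subunit, came from 1 pool. It stood at 17.38 in B6 chow, 17.59 in congenic chow and 17.30 in congenic 2-choice, and at 13.95 in B6 2-choice. The groups overlapped, the pair difference was 0.21 on chow and 3.34 on 2-choice, and the fit gave 1.78 ± 0.41 (limma adjusted p = 0.0448). Hmgn2, a nucleosome-binding protein gene, had 1 of 2 probes called: the dimmer at 0.72, while the brighter was at 0.40 (adjusted p = 0.323).

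Lower genes outside chromosome 17 were led by Nhlh2, a neuronal basic helix-loop-helix factor, at 12.29 and 13.88 in the B6 pools and 10.58 and 11.52 in the congenic pools (-2.04 ± 0.29, limma adjusted p = 0.00152). Mcf2l stood at 17.60 and 17.40 against 15.40 and 16.12 (-1.74 ± 0.18, limma adjusted p = 8.03e-05). Neuronal markers were mostly dim in these pools: 2 of 17 measured were above the filter level in all 4, and their summed level was 0.869 and 0.856 times that of B6. Their part in the Nhlh2 value was not tested. Tssk5, Hbq1a, a theta globin gene, and the olfactory receptor gene Olfr298 were lower by 1.93, 1.65 and 1.44 on the log2 scale. Cxcl12 had 1 of 2 near-equal probes called, at -0.59, the other being at -0.36 (adjusted p = 0.288).

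Trypsin genes of chromosome 6 were lower. Prss1 stood at 13.85 and 14.22 in the B6 pools and 12.06 and 12.89 in the congenic pools (-1.56 ± 0.20, limma adjusted p = 5.22e-04). Prss3 (-1.38) and Try5 (-1.28, chosen after its values were seen) were called as well, but these are near-identical paralogs whose probes may report each other. The 5 exocrine pancreas markers summed to 0.419 and 0.449 times the B6 level on chow and 2-choice. Prss1 is itself among these markers, so the sum is not separate from its fall. The part of pancreas RNA in the trypsin values was not tested. Of the other markers tested, the carboxypeptidase gene Cpb1 was lower in both pairs (-1.61 and -0.83) without passing (limma adjusted p = 0.518), with its congenic pools below the filter level, and the elastase gene Cela2a was at 1.42 and -0.03. Ctrb1 lay between 7.60 and 8.25 and Amy2a5 between 8.20 and 9.44, and neither passed the filter.

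A2m, the alpha-2-macroglobulin gene, was the only one called of 24 tested acute phase and plasma protein genes, at 13.66 and 13.73 against 11.97 and 12.70 (-1.36 ± 0.22, limma adjusted p = 0.0039). Its abundant relative Pzp was at -0.16 ± 0.24. Cyp2b10, a target of the receptor CAR, stood at 12.79 and 12.80 in the B6 pools and 11.52 and 11.57 in the congenic pools, a 2.38-fold fall with near-equal values within each strain (limma adjusted p = 0.032). Of the 26 tested xenobiotic P450 genes it was the only one called, 14 were lower and 4 higher in both pairs, and the median was -0.10. Cyp2e1 (-0.09) and Cyp1a2 (-0.22), among the brightest, were not called, and Cyp2b9 was higher in both pairs (2.72 and 1.35, adjusted p = 0.124).

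Among the brightest lower calls, Pcbd1, a dehydratase of tetrahydrobiopterin and cofactor of HNF1, was at 18.39 and 18.47 against 17.62 and 17.51 (-0.87 ± 0.15, limma adjusted p = 0.00642). Ugt2b38, a glucuronosyltransferase, differed by -0.69 and -0.68, Grcc10 by -0.91 and -0.73 and Tmem270 by -1.14 and -0.67. At the threshold, Nmrk1 (adjusted p = 0.0478), Insm2 (0.0451) and Tssk5 (0.0449) lay just inside, and Igdcc3 (0.0506), Hspb6 (0.0513) and Pld5 (0.0514) just outside.

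In the fit of 4 arrays, limma called 0 of 29 cytosolic ribosomal protein genes and 0 of 33 oxidative phosphorylation genes, with 8 and 9 at an unadjusted p under 0.05. Over all 9748 genes 0.903% were called, so lists of this size would hold few calls, and 1142 were at an unadjusted p under 0.05. The ribosomal and oxidative phosphorylation medians were 0.19 and 0.11. Higher in both pairs were 18 and 17 members (62.1% and 51.5%, against 30.9% of all genes). Lower in both were 5 and 4 (17.2% and 12.1%, against 27.2%). In cholesterol synthesis limma called 0 of 10 tested genes (6 at an unadjusted p under 0.05), with 6 higher in both pairs and 2 lower and a median of 0.33. Squalene epoxidase Sqle was at 0.49 (adjusted p = 0.116) and the isomerase Idi1 at 0.39. The brightest ribosomal genes, Rpl19 and Rpl26, were at -0.04 and -0.05.

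The 6 measured hepatocyte markers summed to 1.35 times the B6 level on chow and 1.33 times on 2-choice, with 3 higher in both pairs and 3 split between them, and limma called 0 of them (1 at an unadjusted p under 0.05). Alb stood at 20.07 and 20.58 in the B6 pools and 21.40 and 21.29 in the congenic pools (1.02 ± 0.25, adjusted p = 0.0566). The part of this sum in the metabolic genes above was not tested. Muscle markers, dim in the other pools, summed to 22.6 times the B6 level on chow through Tnni2, at 16.61 in congenic chow alone, and to 1.27 times on 2-choice.

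**Figure D5:**
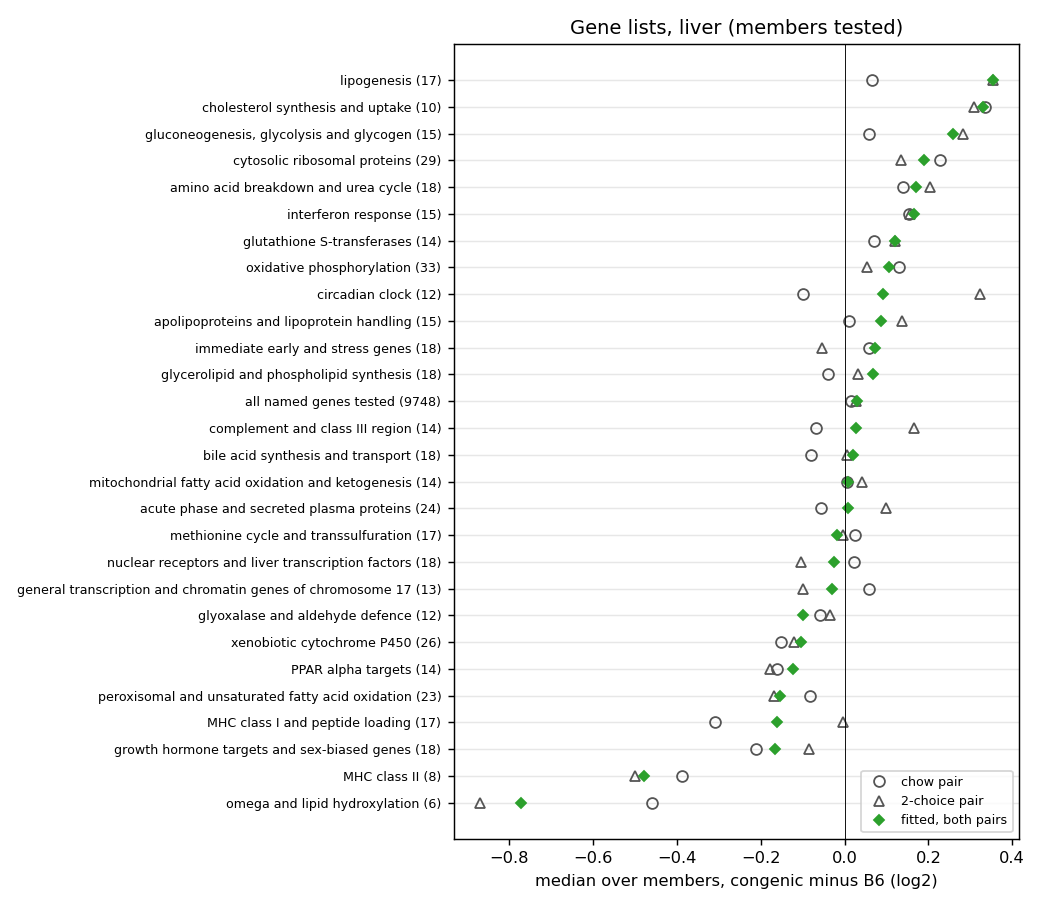
Median congenic minus B6 difference (log2) over the tested members of each gene list (number in brackets), in the chow pair (circles), the 2-choice pair (triangles) and the fit of both (diamonds), with all 9748 named genes at 0.03. Omega and lipid hydroxylation (-0.77) and MHC class II (-0.48) lie lowest, and lipogenesis (0.35) and cholesterol synthesis (0.33) highest.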

How the data were processed

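RNA of liver pools was measured on single-channel Applied Biosystems arrays, from digoxigenin-labelled cRNA, per the labels' protocols. The deposited values were linear probe intensities for 33012 probes, and how the authors corrected background and scaled the arrays is not given in the sources used here. The sorted intensities of the 2 strains agreed within 0.0983% on chow and 0.105% on 2-choice (medians 700 and 702), so each strain pair shared 1 scaling, and diet and scaling cannot be told apart.

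Intensities were taken to log2, quantile normalized over the 4 liver arrays and filtered at the 40th percentile of mean level (9.04). Diet and strain were fitted with limma 3.58.1 (R 4.3.3) and moderated by eBayes with a variance trend, with Benjamini-Hochberg adjustment over 19807 probes and a threshold of 0.05, and the fit was tested on simulated data. The number of arrays limits precision, and since no pool was repeated, p-values speak only of the spread among these 4.

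Of the probes, 14411 had 1 symbol, 247 several and 18354 none; 14402 were matched by Entrez ID to the RefSeq gene table (GRCm38.p6), which gave chromosome and gene order only. A gene took its brightest probe, and other probes are given where they disagree. Genes were named by rule: the 15 called genes with the largest difference and the 10 brightest called genes in each direction, called genes of chromosome 17 and of lists, up to 4 of the brightest members of a list, defining markers, and the 3 next to the threshold; other names were chosen after their values were seen. The 27 gene lists and 15 marker lists, like the comparison itself, were chosen with earlier results of these data known. Scalings, an offset, filters, variance models, the diet term and leaving out each array were varied.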

Additional observations from a re-analysis of the deposited data

Results flagged for a closer look

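Among the called genes and the 4 brightest tested members of each list, there were 5 genes whose strain difference was at least 1.5-fold in both diet pairs but in opposite directions, a difference between diets that was not tested and rests on 1 pool a side. Congenic minus B6 (log2), chow then 2-choice, was -1.40 and 0.63 for the T cell marker gene Cd3e, 1.00 and -1.19 for the muscle creatine kinase Ckm, and 2.30 and -1.29 for the mucin Muc1. It was -1.74 and 2.20 for the cardiac myosin Myh6 and -0.74 and 2.34 for the glutamate transporter Slc1a3. All 5 are markers of cells other than hepatocytes, and none was called.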

How the results depend on the processing

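The 252 calls became 396 (97 higher) with an offset of 50, and 59 (10 higher, 49 lower) when only named probes were fitted, a setting chosen after seeing the data. They became 0, in each direction and on chromosome 17, with no variance trend, no diet block or the spread from all 8 arrays. Without 1 array they were 8 to 15, with 2 to 9 higher and 3 to 12 lower and 0% to 0.4% of chromosome 17 genes. The causes were not tested. In the 8 other scalings, filters and robust prior, calls ranged from 189 to 396 and 57 of 88 called genes kept their call wherever tested. Chromosome 17 had 3.2% called with no filter (0.387% elsewhere) and 7.85% with the stricter filter (1.61%), the lowest and highest of these 8. Genes 1.5-fold apart in both pairs were 534 higher with no filter, 167 higher and 331 lower with the stricter one, 147 and 271 with all 4 arrays above the filter level, and 182 and 355 with both group means above it, a setting chosen after seeing the data. Fewer or more genes entered each. No called gene reversed, while the direction of genes named but not called was not followed through these settings. The medians of 4 lists changed sign. No paired analysis was possible because each group had 1 array, other than the diet pairing of the fit itself.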
